A study of Mus musculus with 6 samples.

Results

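The receptor tyrosine kinase Ret, through which GDNF and its relatives signal, was described together with 8 genes of its pathway in mouse testes at E13.5, a fetal stage soon after the testis forms, that lacked the transcription factor Dmrt1. The genes were Ret, Gfra1, Gfra2, Gdnf, Sdc4, Etv5, Bcl6b, Id4 and Cxcl12. They were found by gene symbol alone, as the probe sets whose platform annotation names exactly 1 gene and that gene is one of the 9. This gave 23 of 45101 probe sets, and 9 of 18194 gene symbols on the array.

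The comparison was of 3 Dmrt1 null with 3 control testis samples, each hybridised to 1 array, with each title naming a biological replicate. The controls are heterozygous, Dmrt1 (+/-), by description, genotype entry and design text, although the titles call them wild type. The nulls are homozygous mutants by title, description and design text, whereas the genotype entry gives Dmrt(flox/flox), and no Cre is named. Both groups were outcrossed to 129S6/SvEvTac, a strain background in which the mutants often form testicular teratomas, and the samples were whole gonads. Whether a sample pooled several animals is not stated.

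GDNF is a secreted growth factor that first binds a co-receptor of the GFRα family, held on the cell surface by a lipid anchor, and the pair then engages Ret, whose kinase signals through adaptor proteins to the MAP kinase and PI3 kinase routes. In the testis, Sertoli cells and other somatic cells are known to make GDNF, and Ret and GFRα1 are carried by germ cells, in adult mice by spermatogonial stem cells. Etv5, Bcl6b and Id4 are transcriptional regulators of those stem cells, and Etv5 and Bcl6b are known GDNF targets there. Ret is also well known from the nephric duct and from neurons of the autonomic nervous system.

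Dmrt1 itself followed the labels, with intensities of 696, 1030 and 796 in control replicates 1 to 3 and of 48.4, 26.9 and 23.8 in null replicates 1 to 3. Array medians were 14.6 to 14.8. Of 22082 probe sets tested, 6 were called by limma at an adjusted p under 0.05, all lower in the null, which is 0.0272%. Of the 23 probe sets of the 9 genes, 17 passed the filter on dim values, with at least 1 for each gene, and 0 of them were called. Sertoli cell markers, which define the fetal testis, were measured at 10 of 10 listed genes, and their summed intensity was 19610 to 21250 in controls and 17420 to 18770 in nulls. Only 3 of the 10 were lower in the null, among them the bright genes Cst9 at -1.58 and Aard at -0.43 on the log2 scale. The median difference was 0.080, and Tesc was higher in the null at 0.52. Cst9 was the 1 called gene of the list (limma adjusted p = 0.0271). Macrophage markers were lower in the null at 7 of 7 genes, none of them called, with a median difference of -0.31 and summed intensities of 2435 to 3018 in controls and 2046 to 2427 in nulls. Control replicate 2 had the highest median of germ cell markers and the lowest of endothelial markers, and Dbh, an enzyme of noradrenaline synthesis in sympathetic neurons and the adrenal medulla, was at 594 in control replicate 3 and at 3.13 to 4.66 elsewhere.

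Ret showed the lowest nulls relative to controls among the 9 genes, although it was not called at the threshold. Probe set 1436359_at read 50.1, 107 and 75.8 in control replicates 1, 2 and 3 (GCRMA intensity, linear scale). The same probe set gave 12.1, 16.1 and 16.2 in null replicates 1, 2 and 3. The groups did not overlap, and the lowest control was 3.09-fold above the highest null. The mean was 77.6 ± 28.5 in controls and 14.8 ± 2.34 in nulls (SD, n = 3 each), so the null level lay at about the median of the whole array. On the log2 scale the nulls were lower by a difference of -2.34 ± 0.28 (standard error), which is 5.05-fold with a 95% confidence interval of 3.22 to 7.92. The limma p, adjusted over all tested probe sets by the Benjamini-Hochberg method, was 0.0979. Differences given from here on are likewise log2 values, negative where the null was lower. By p-value Ret was number 8, and by the most negative difference number 3, of 22082 probe sets.

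The other Ret probe set, 1421359_at, was dim and below the filter on low values, a mean log2 intensity of at least 4, so it was not tested. Its intensities were 11.9, 33.0 and 13.9 in control replicates 1 to 3 and 7.27, 6.06 and 6.64 in null replicates 1 to 3. These groups did not overlap either, at a log2 difference of -1.41, and control replicate 2 was again the highest array. Without control replicate 2 this difference was -0.95. The bright Ret probe set had a difference of -2.07 without control replicate 2, the smallest when single arrays were left out, and -2.62 without control replicate 1, the largest. Its null mean of 3.87 on the log2 scale was itself under 4, so it passed the filter through the controls. Adding 16 to every intensity, which damps dim values, moved Ret to -1.56 (limma adjusted p = 0.220). Over the alternatives tried, the limma adjusted p of Ret was 0.0211 to 0.743, and it was under 0.05 only with estimated array weights, which gave control replicate 3 a weight of 4.43 against 0.532 to 1.11 for the others.

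In whole gonads, fewer cells of a type and less RNA per cell cannot be told apart. Germ cell markers, 12 tested of 14 listed, had summed intensities of 13230 to 18750 in controls and 12850 to 14720 in nulls, and 9 of the 12 were lower in the null. Their median level, relative to the mean of the 6 arrays on the log2 scale, was 0.033 in null replicate 1 and 0.037 in control replicate 3, where Ret was 12.1 and 75.8. In control replicate 1 the germ cell level was -0.17, lower than in null replicates 1 and 2, and Ret was 50.1. Single markers ran from Tdrd5 at -1.42 to Tfap2c at 1.00, so equal medians need not mean equal germ cell content. The part of germ cell content in the Ret difference was not tested. Nephric duct and mesonephric markers, 5 tested of 8 listed, had overlapping sums of 2052 to 2468 in controls and 2105 to 2345 in nulls. Markers of autonomic neurons and glia, 4 tested of 11 listed, had sums of 862 to 918 in controls and 666 to 841 in nulls, without overlap. Of these 4, Erbb3 at -0.40 and Elavl4 at -0.56 were lower in the null, and Sox10 at 0.19 and Stmn2 at 0.037 were higher, with no gene called. Erbb3 made up most of the sum, and its own groups overlapped, at 612 to 720 in controls and 386 to 640 in nulls. The part of this list and of the macrophage markers, which were lower in the null, in the Ret and Sdc4 differences was not tested. Of this list Phox2a, Th, Dbh and Foxd3 were below the filter. Phox2a and Th reached 39.4 and 83.1 in control replicate 3, whereas the remaining arrays read 5.35 to 13.4. In control replicates 1 and 2, where Dbh was at 3.13 and 3.35, Ret was at 50.1 and 107. Leaving out control replicate 3 gave a Ret difference of -2.32 (limma adjusted p = 0.743). The part of tissue carrying Dbh, Th and Phox2a in the Ret difference was not tested.

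**Figure D1:**
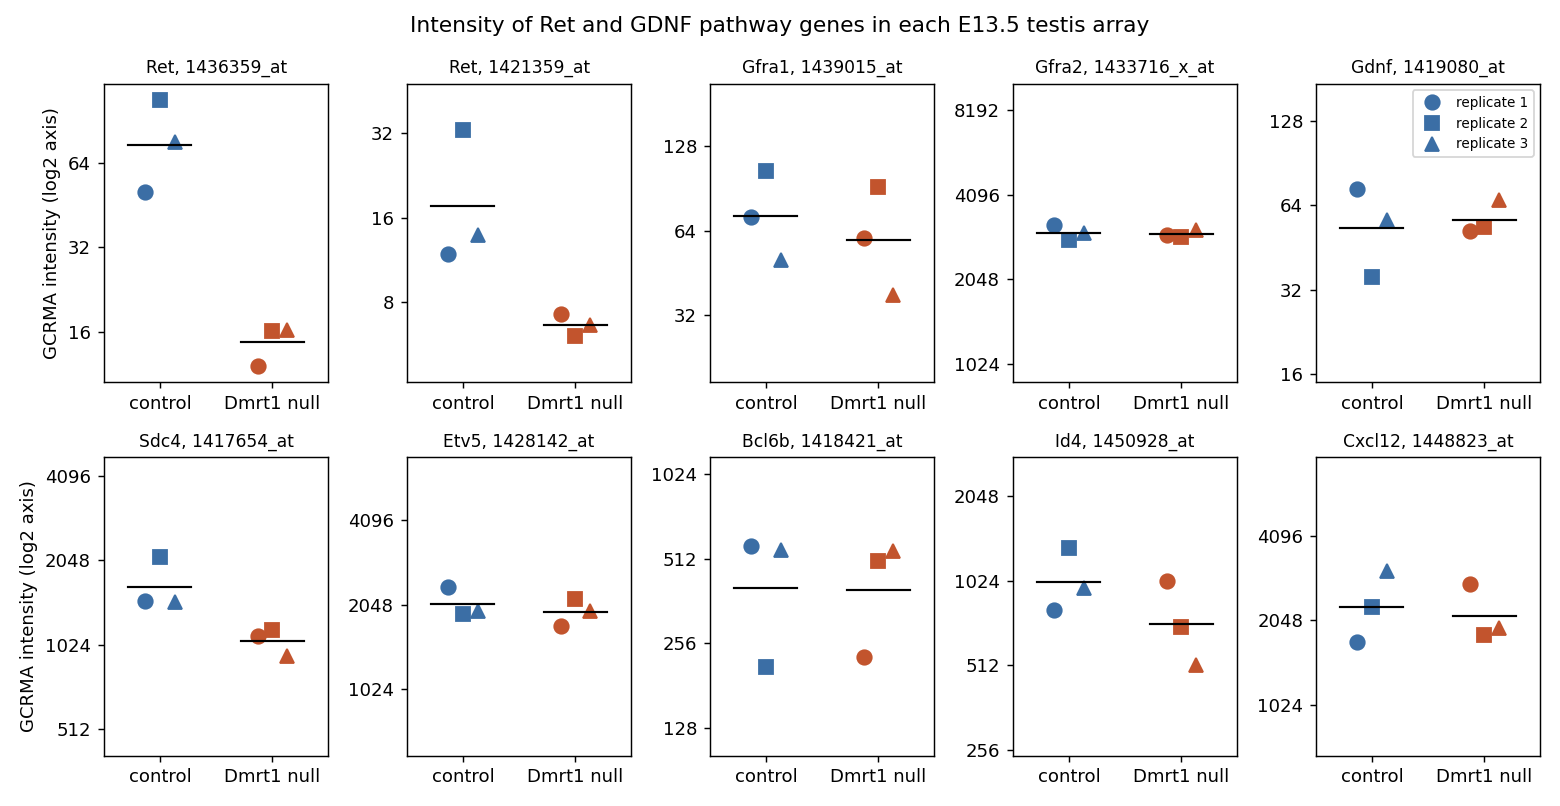
Intensity (GCRMA, log2 axis) of both Ret probe sets and the brightest probe set of each other gene in 3 control (blue) and 3 Dmrt1 null (orange) testis arrays; symbols mark replicates 1 to 3 and lines the mean of the log2 values. Nulls lie below all controls for Ret and Sdc4, whereas the groups overlap for the other 7 genes. Over all tested probe sets, 6.06% have all nulls below all controls and 6.73% have all nulls above. The dimmer Ret probe set was not tested, so these shares do not cover it. Bcl6b is low in control replicate 2 and null replicate 1.

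The genes whose pattern over the 6 arrays was most like that of Ret were found among 2208 probe sets with 1 symbol and a range of at least 1 on the log2 scale. They were Mtmr6, a phosphoinositide phosphatase, Rian, an imprinted noncoding RNA, AI662270, H2-Aa, an MHC class II chain, and Dmrt1. Pearson correlations with Ret were 0.97, 0.97, 0.97, 0.96 and 0.95 in that order, given as a measure of likeness only, since both groups enter it. For all 5, every null was below every control, but selection for likeness to Ret, whose groups do not overlap, favours this. H2-Aa had a null mean of 3.49 on the log2 scale, so it passed the filter at 4 through the controls. Rian, for instance, was at 174, 302 and 246 in control replicates 1 to 3 and at 122, 128 and 115 in null replicates 1 to 3, so its highest array was also control replicate 2.

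The ligand Gdnf did not differ beyond the spread between arrays. Its intensities were 73.3, 35.5 and 56.7 in control replicates 1 to 3 and 51.7, 53.3 and 66.5 in null replicates 1 to 3. The controls spanned the nulls, and control replicate 2, the highest array for Ret, was the lowest for Gdnf. The log2 difference was 0.10 with a 95% confidence interval of -0.51 to 0.72 (limma adjusted p = 0.940, n = 3 per group). The interval ran from a 1.43-fold lower to a 1.65-fold higher level in the null. The sign turned without control replicate 2, at -0.18.

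The co-receptor Gfra1, which pairs with GDNF to engage Ret, overlapped between the groups. Its bright probe set gave 71.7, 105 and 50.2 in control replicates 1 to 3 and 60.3, 91.9 and 37.8 in null replicates 1 to 3. Replicates within each group ranged over more than 1 on the log2 scale, against a difference of -0.28 between groups (95% confidence interval -1.13 to 0.56, limma adjusted p = 0.885). Without null replicate 3 that difference was 0.042. The other Gfra1 probe sets, 1421973_at and 1450440_at, were between 5.00 and 10.1 on all arrays and were not tested. Their differences were -0.16 and -0.40.

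Gfra2 encodes the co-receptor that prefers neurturin, a relative of GDNF. It had 5 probe sets. Of these, 1433716_x_at and 1459847_x_at gave 2820 to 3180 and 446 to 588 on the 6 arrays, but are of a type that can bind several transcripts. They had differences of -0.015 and -0.11, with limma adjusted p of 0.972 and 0.870. Of the other 3, 1425578_a_at was tested, at 15.3 to 18.4 over all arrays and a difference of -0.037. The remaining 2 lay between 5.75 and 9.73 and were not tested. No Gfra2 probe set separated the groups. The narrow spread of 1433716_x_at gave the tightest interval among the tested probe sets of the 9 genes, -0.17 to 0.14. As it can bind several transcripts and the other 3 read at most 18.4, that interval may not be the one of Gfra2.

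Sdc4, or syndecan-4, is a cell surface proteoglycan whose heparan sulfate chains bind growth factors. Its RefSeq promoter is shown because Sdc4 was, with Ret, the gene whose groups did not overlap, and because a match to the DM domain factors' core motif could be looked for there. The window is the 250 bases before the start of the gene, chr2:164443189-164443438, minus strand, assembly GRCm38.p6.

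Sdc4: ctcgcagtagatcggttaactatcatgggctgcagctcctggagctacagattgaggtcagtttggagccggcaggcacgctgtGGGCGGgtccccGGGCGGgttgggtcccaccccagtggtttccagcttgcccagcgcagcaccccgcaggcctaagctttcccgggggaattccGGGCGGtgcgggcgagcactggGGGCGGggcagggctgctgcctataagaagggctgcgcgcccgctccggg

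Capitals mark the GC box GGGCGG, found 4 times here, and on either strand in 32.7% of 32851 such windows. The core ACANTGT, which reads the same on both strands, was not in this window. It was in 6.47% of the 32851 windows and in 0 of the 8 windows that the table holds for 6 of the 9 genes, namely Sdc4, Cxcl12, Id4, Gdnf, Etv5 and Gfra1. The absence says only that these letters do not occur in these bases.

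Both Sdc4 probe sets had every null below every control. Probe set 1417654_at gave 1470, 2100 and 1450 in control replicates 1 to 3 and 1100, 1150 and 933 in null replicates 1 to 3. The lowest control was 1.26-fold above the highest null, a narrower gap than that of Ret. The difference was -0.64 ± 0.16 (standard error), or 1.56-fold lower (95% confidence interval 1.21 to 2.01, n = 3 per group). It was not called, with a limma adjusted p of 0.773. The second probe set, 1448793_a_at, gave 385, 739 and 404 in control replicates 1 to 3 and 350, 363 and 304 in null replicates 1 to 3, a difference of -0.52 (limma adjusted p = 0.773). Here the gap between the groups was 1.06-fold. Control replicate 2 was the highest array in both, and without it the differences were -0.47 and -0.22. Sdc4 and Ret shared their highest array, which was also the highest for germ cell markers and the lowest for endothelial markers. The part of germ cell content in the Sdc4 difference was not tested. Of the 17 tested probe sets of the 9 genes, 3 had all nulls below all controls, against 6.06% of all tested probe sets, and these 3 belong to Ret and Sdc4 alone. At an unadjusted limma p under 0.05 there were 2 of the 17, Ret 1436359_at and Sdc4 1417654_at, against 6.04% of all tested. None had all nulls above all controls, which held for 6.73% of all tested.

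**Figure D2:**
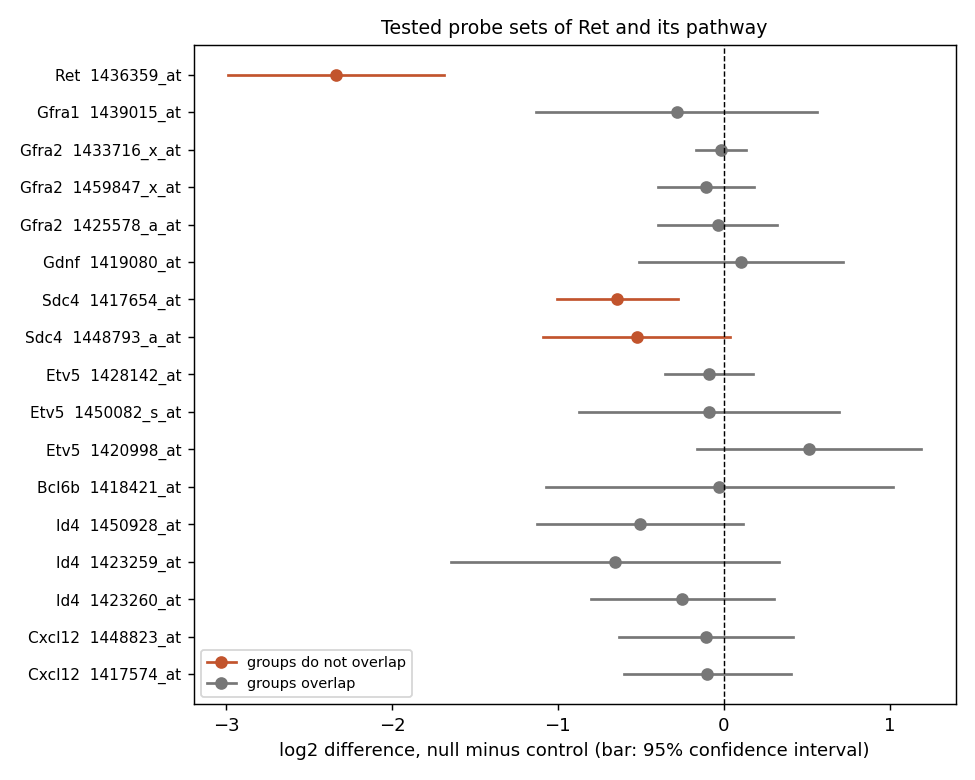
Log2 difference of null minus control (points) with its 95% confidence interval (bars, limma, 3 arrays per group) for the 17 tested probe sets of the 9 genes; orange marks groups that do not overlap. The interval of Ret runs from -2.99 to -1.69, the intervals of Ret and of 1 Sdc4 probe set leave out 0, and none of the 17 was called after adjustment.

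Etv5 encodes an ETS transcription factor that keeps spermatogonial stem cells renewing. Its bright probe set 1428142_at gave 2360, 1890 and 1950 in control replicates 1 to 3 and 1720, 2150 and 1950 in null replicates 1 to 3. The groups overlapped, with a difference of -0.090 and a 95% confidence interval of -0.36 to 0.18 (limma adjusted p = 0.884). The other Etv5 probe sets disagreed in sign. Probe set 1450082_s_at was at -0.089 and 1420998_at at 0.51, with limma adjusted p of 0.966 and 0.774. The latter gave 61.9, 40.5 and 33.0 in control replicates 1 to 3 and 58.3, 86.3 and 47.9 in null replicates 1 to 3. The mean over the Etv5 probe sets gave a difference of 0.11, so no direction can be given for this gene.

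Bcl6b, a zinc finger repressor of spermatogonial stem cells that is also made by blood vessel endothelium, varied widely within both groups. It was at 571, 210 and 552 in control replicates 1 to 3 and at 228, 504 and 545 in null replicates 1 to 3. Control replicate 2 and null replicate 1 were low and the other 4 arrays lay together, so 1 low array fell in each group. The difference was -0.027 ± 0.45 (standard error, limma adjusted p = 0.994). The median of 7 endothelial markers was lowest in the same arrays, at -1.11 in control replicate 2 and -0.51 in null replicate 1, and 0.25 to 0.43 in the others. The VE-cadherin gene Cdh5, for instance, was at 37.0 and 44.4 in those arrays and at 61.0 to 76.6 in the rest. Summed endothelial intensities were 1083 to 3002 in controls and 1530 to 3037 in nulls. This list was set beside Bcl6b after the values were seen. The part of endothelial content in the Bcl6b values was not tested. Leaving out single arrays moved the Bcl6b difference between -0.50 and 0.37.

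Id4, an inhibitor of DNA binding of helix-loop-helix factors and a marker of spermatogonial stem cells, had differences of -0.65 to -0.25 at its 3 probe sets, with groups that overlapped at each. Probe set 1450928_at gave 803, 1340 and 967 in control replicates 1 to 3 and 1020, 701 and 512 in null replicates 1 to 3. Null replicate 1 was above control replicates 1 and 3. The difference was -0.50 with a 95% confidence interval of -1.12 to 0.12 (limma adjusted p = 0.774). Probe set 1423259_at gave 358, 1150 and 669 in control replicates 1 to 3 and 644, 364 and 302 in null replicates 1 to 3, a difference of -0.65 (limma adjusted p = 0.791). The dim 1423260_at was at 13.3 to 17.7 on the arrays other than control replicate 2, with a difference of -0.25. In all 3 the highest array was control replicate 2 and the next highest was null replicate 1 or control replicate 3. The germ cell markers had the same leading array, at 0.49 in control replicate 2, and were lowest in null replicate 3, at -0.24, where the first 2 Id4 probe sets were lowest too. The part of germ cell content in the Id4 difference was not tested. Without control replicate 2 the difference of 1450928_at was -0.30, and without null replicate 3 it was -0.26. Without control replicate 2 the differences of 1423259_at and 1423260_at were -0.24 and -0.024. Leaving out single arrays moved 1423259_at between -1.08 and -0.24 and 1423260_at between -0.44 and -0.024.

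Cxcl12, the chemokine that draws germ cells bearing the receptor Cxcr4 to the gonad, overlapped between the groups. Probe set 1448823_at gave 1710, 2280 and 3070 in control replicates 1 to 3 and 2760, 1810 and 1920 in null replicates 1 to 3. Probe set 1417574_at put the arrays in the same order, at 1090, 1310 and 1940 in control replicates 1 to 3 and 1610, 1130 and 1240 in null replicates 1 to 3. The differences were -0.11 and -0.099, with limma adjusted p of 0.928 and 0.930. Each sign turned without control replicate 3, to 0.11 and 0.13. Control replicate 3, null replicate 1 and control replicate 2 were the highest for both Cxcl12 probe sets. The same arrays had the highest medians of 4 fetal Leydig markers, tested of 6 listed, at 0.78, 1.26 and 0.76. The other arrays were at -1.40 to -0.65. The order differed, with null replicate 1 highest for the Leydig markers and control replicate 3 for Cxcl12. Summed Leydig intensities were 4024 to 10320 in controls and 3204 to 12950 in nulls. This list was set beside Cxcl12 after the values were seen. The part of Leydig cell content in the Cxcl12 values was not tested. The third probe set, 1439084_at, lay between 5.54 and 7.84 and was not tested. Its difference was 0.15. The receptor Cxcr4 was at 758 to 1220 in controls and 913 to 1170 in nulls, a difference of 0.11 (limma adjusted p = 0.913).

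**Figure D3:**
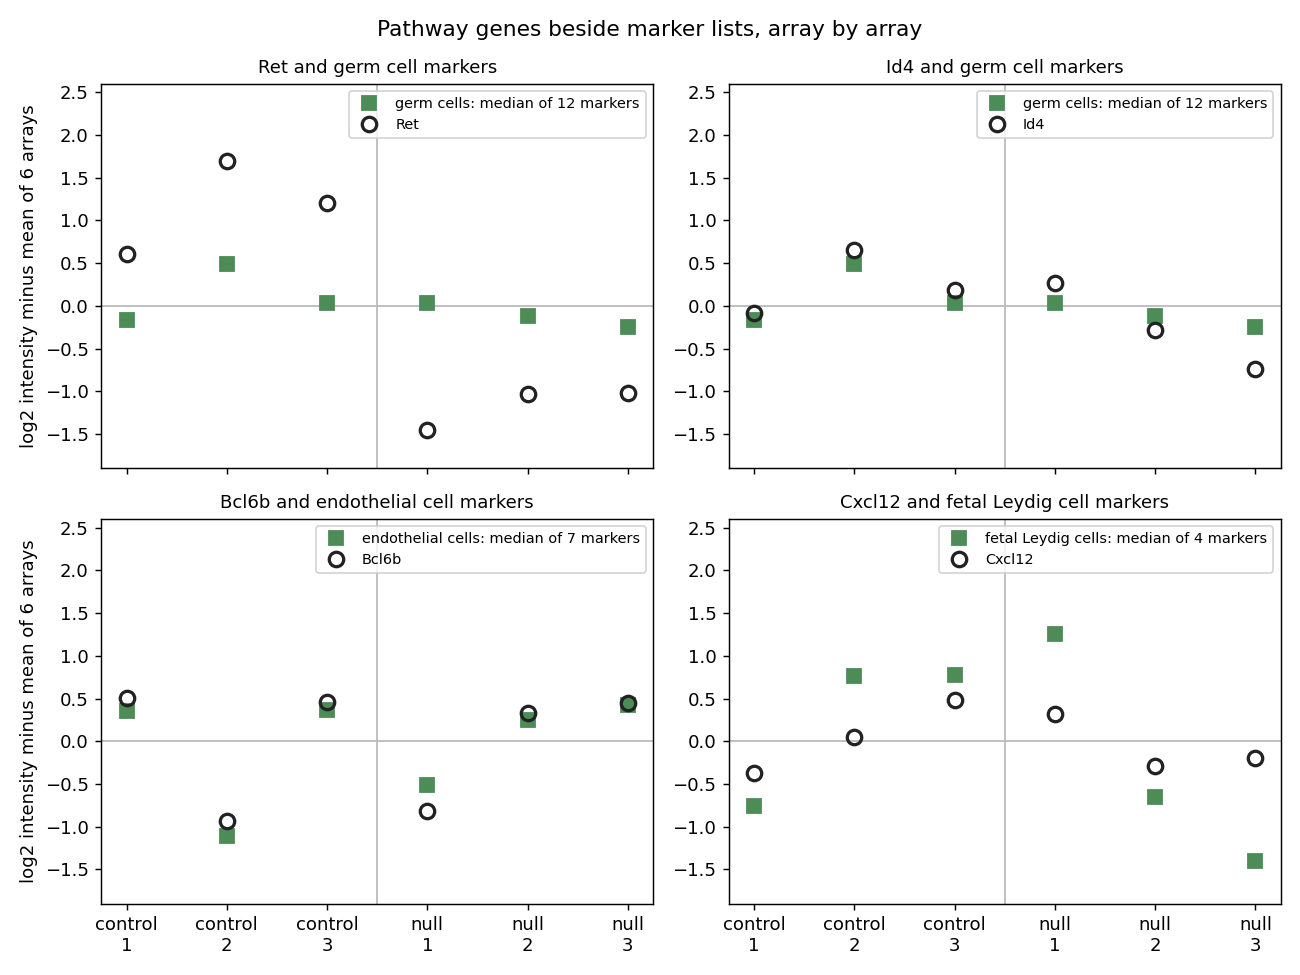
Log2 intensity relative to the mean of the 6 arrays (vertical axis) for Ret, Id4, Bcl6b and Cxcl12 (open circles, brightest probe set) beside the median of germ cell, endothelial or fetal Leydig markers (green squares) on each array. Bcl6b and the endothelial markers are both low in control replicate 2 and null replicate 1, whereas Ret is higher in every control than in every null; the pairs of gene and list were chosen after the values were seen.

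Control replicate 3 and null replicate 2 share a leading number in their descriptions, of unstated meaning, and no other arrays share one. Between these arrays the log2 difference, null less control, was -2.24 for the bright Ret probe set and -0.33 for Sdc4 1417654_at. It was 0.87 for Gfra1, opposite in sign to the comparison of all arrays, and 1.39 for Etv5 1420998_at. It was -0.46 and -0.88 for the Id4 probe sets 1450928_at and 1423259_at and -0.76 for Cxcl12 1448823_at. Single arrays allow no test of these values. The descriptions also end in running numbers, which are 1 to 3 for the nulls and 4 to 6 for the controls, so an order that they may stand for and the genotype cannot be told apart.

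Other genes of the GDNF pathway gave no called member. The list held 43 genes, of which 38 had a probe set and 32 were tested by their brightest one. Of these, 19 were lower and 13 higher in the null, and the median difference was -0.027, against 0.0077 over all tested probe sets. The difference was below 0 for 48.1% of all tested probe sets. All 32 lay between -0.25 and 0.36, and the lowest limma adjusted p was 0.773. At an unadjusted limma p under 0.05 there was 1 gene of the 32, Ncam1, against 6.04% of all tested probe sets. It was also the 1 gene with all nulls below all controls, against 6.06% of all tested, and 0 genes had all nulls above all controls, against 6.73%. These shares of the list are no larger than those over all tested probe sets.

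Ncam1, a cell adhesion molecule that can bind GDNF with GFRα1 in place of Ret, was at 6030, 5230 and 5810 in control replicates 1 to 3 and at 4550, 5220 and 5160 in null replicates 1 to 3. The groups were just apart, and the difference was -0.19 with a limma adjusted p of 0.773. The relatives of GDNF, Nrtn, Artn and Pspn, were between 5.66 and 8.40 on every array and were not tested. The co-receptors Gfra3 and Gfra4 had differences of 0.36 and 0.084, with limma adjusted p of 0.871 and 0.938. Gfra3 was at 57.6 in null replicate 3 and at 16.5 to 29.3 in the other arrays.

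The other syndecans did not follow Sdc4. Sdc1, Sdc2 and Sdc3 had differences of 0.072, 0.062 and -0.081, all with overlapping groups and with limma adjusted p of 0.890 to 0.945. Whether they differ from Sdc4 in their change was not tested. Among regulators and targets downstream, the ETS factor Etv4 was at 0.31, the phosphatase Dusp6 at 0.058, the homeobox factor Lhx1 at -0.24 and the POU factor Pou3f1 at -0.16, with limma adjusted p of 0.817 to 0.971. The kinase feedback inhibitors Spry1, Spry2 and Spry4 were at 0.15, -0.048 and 0.11. The adaptors Shc1 and Grb2, which dock on active Ret, were at -0.17 and -0.062. Gfral, Frs2, Dok6, T and Nanos2 were not analysed here.

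**Figure D4:**
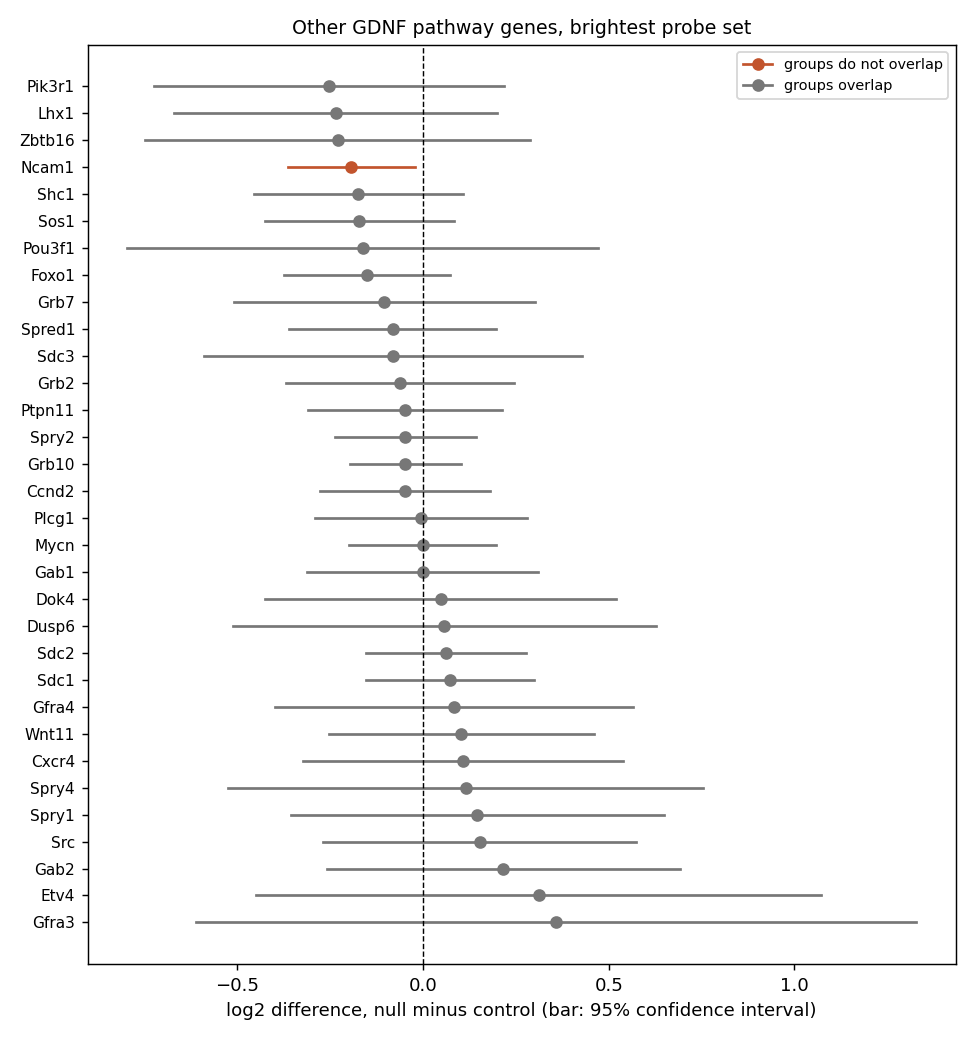
Log2 difference of null minus control (points) with its 95% confidence interval (bars, limma, 3 arrays per group) for 32 other GDNF pathway genes, each by its brightest probe set, ordered by difference. All points lie between -0.25 and 0.36, and Ncam1 (orange) is the 1 gene of 32 whose groups do not overlap, against 6.06% of all tested probe sets with nulls below controls and 6.73% with nulls above.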

How the data were processed

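RNA of whole gonads was amplified and labelled with a NuGen kit for oligonucleotide arrays, according to the labels' protocols. The authors deposited linear intensities made with GCRMA (background correction, normalization between arrays, probe set summary), per the submitters' processing notes, with its version not given in the sources used here. With 3 arrays a group, their number limits the precision. Folds between dim values depend on the background correction. The ratio of the 3' to the 5' control probe set of Actb, a measure of RNA integrity and labelling, was 2.75 in null replicate 3. It was 1.91 to 2.15 on the other arrays. The part of RNA quality in the differences was not tested.

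Arrays were grouped by title. Intensities were taken to log2 with nothing added. The 22082 probe sets with a mean of at least 4 over the 6 arrays were fitted with limma 3.58.1 (R 4.3.3), on group alone, using eBayes with a trend on intensity, two-sided tests and Benjamini-Hochberg adjustment over all of them. The p-values set each group difference against the spread between these samples, estimated with help from all tested probe sets. Of 34958 probe sets with 1 symbol, 34754 matched RefSeq by Entrez ID with 0 symbols changed, while 932 had several symbols and 9211 none. Named were all probe sets of the 9 genes, fixed classes of pathway genes, those at an unadjusted p under 0.05, and the 5 genes most correlated with Ret. The members and lists were chosen with earlier results of these data known. Some pathway examples (Etv4, Dusp6, Lhx1, Pou3f1, the Spry genes, Shc1 and Grb2) and the markers given by name were chosen after their values were seen. In simulated data with these means and spreads, limma called 58% of 100 probe sets shifted by 1 (log2) and 88% of 100 shifted by 2. Both sets were shifted in the same simulated data, where 6 unshifted probe sets were also called. Many shifted probe sets loosen the Benjamini-Hochberg cut, and the real data gave 6 calls in all. The simulated rates can therefore be higher than those for the real data. Each probe set was also drawn on its own, whereas genes of some marker lists shifted together between the real arrays. How this changes the rates was not tested. No 2 arrays shared more than 451 equal values.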

Additional observations from a re-analysis of the deposited data

How the results depend on the processing

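The Ret difference stayed below 0 in all 18 alternatives that kept its probe set, between -2.62 and -1.56. A filter at a mean log2 of 6 removed Ret before the test. Ret was called with array weights (-2.31) and at an adjusted p under 0.1 (-2.34), so the number of called probe sets of the 9 genes was 1 in those and 0 otherwise, with a range of 0 to 0 when single arrays were left out. No gene of the wider pathway list was called by limma in any of the 19 alternatives, a count of 0. Of all tested probe sets, 6 were called. That count was 1 with no intensity trend, 3 without probe set types that can bind several transcripts, and 0 to 4 when single arrays were left out. With the replicate number as a block it was 0, with the Dmrt1 difference at -4.72 and a limma adjusted p of 0.200. Deviations of same-numbered arrays from their group means had correlations of -0.59, -0.34 and 0.15 for numbers 1, 2 and 3. The highest correlations were between arrays of different number. They were 0.58 for control replicate 2 with null replicate 1 and 0.46 for control replicate 1 with null replicate 2. For control replicate 3 and null replicate 2, which share a leading number in their descriptions, the correlation was -0.16. With 3 arrays a group, these values cannot settle whether any samples are paired. Dmrt1 ranged from -5.03 to -4.52 with single arrays left out, and at -4.75 without control replicate 3 its limma adjusted p was 0.0558.

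Some uncalled differences changed sign, none of them called in either direction. With array weights, Gfra1 1439015_at was at 0.14, Etv5 1450082_s_at at 0.39 and Gfra2 1425578_a_at at 0.014. The mean over the Etv5 probe sets was at 0.11, opposite in sign to the brightest of them, 1428142_at, at -0.090. When single arrays were left out, the differences that turned were Bcl6b (0.22, 0.20 and 0.37, in a range of -0.50 to 0.37), Cxcl12 1417574_at (0.13 and 0.0087, range -0.28 to 0.13), Cxcl12 1448823_at (0.11 and 0.0091, range -0.32 to 0.11), Gdnf (-0.18 and -0.0095, range -0.18 to 0.34) and Gfra1 1439015_at (0.042, range -0.60 to 0.042). Likewise, Gfra2 1425578_a_at gave 0.044 (range -0.089 to 0.044), Gfra2 1433716_x_at 0.030 and 0.0022 (range -0.057 to 0.030), Etv5 1428142_at 0.0091 (range -0.17 to 0.0091), and Etv5 1450082_s_at 0.25, 0.048 and 0.022 (range -0.39 to 0.25). The cause was not tested. The Sdc4 and Id4 differences stayed below 0 in every alternative run.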
